A study of Sus scrofa with 24 samples.

Results

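The vein segment just downstream of the venous anastomosis of an arteriovenous haemodialysis graft was compared between day 14 and day 5 after graft placement in pigs (Sus scrofa). The samples were chosen by their labels alone, as all samples of the downstream segment on either day, which gave 8 of the 24 samples of the series: 4 of day 5 and 4 of day 14. Both groups carried a graft and were total RNA of the same segment, labelled with Cy5. The other 16 samples came from the anastomosis itself and from the external jugular vein, which served as the control, on the same days. Strain, sex and age are not given in the sources used here. The labels call the replicates biological, and no label says whether replicates of the same number on the 2 days, or at the 3 sites, were 1 animal. The file names call this number a pig on both days.

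An arteriovenous graft joins an artery to a vein so that blood can be drawn for dialysis, and it exposes the vein to arterial pressure and fast flow. Such veins are known to thicken by neointimal hyperplasia, in which fibroblasts and smooth muscle cells of the wall divide, migrate inward and lay down matrix, while macrophages and other leukocytes enter. In healing tissue, cell division and secretion of matrix usually come early, and lymphocytes and quieter stromal cells take a larger place later. The question of the comparison was how expression in the outflow vein differed between an early and a later time after surgery.

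The share of probes well above background was 65.3% to 80.2% over the 8 downstream samples, lowest in the day 5 samples of replicates 1 and 2. Replicates 1 and 2 lay apart from replicates 3 and 4, and not day from day, on the leading principal component (40.2% of the variance). For replicates 1 and 2 the days also differed in slide and scan, whereas the days of replicates 3 and 4 shared a scan. Of the markers of vein wall cells, all 5 of smooth muscle, all 5 of endothelium and all 3 of fibroblasts found on the array by symbol were well above background in 8 of 8 samples. No marker of neutrophils or red blood cells was found by symbol. Levels below are normalised log2 signals of 1 probe, in the order of replicates 1 to 4, and differences are log2, day 14 minus day 5, ± the standard error from limma with n = 4 per day. All 8 samples were in the same dye.

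Of 33346 features tested, of which 5903 had a gene symbol, 0 passed an adjusted p of 0.05 (0% called, limma with Benjamini-Hochberg adjustment, smallest adjusted p = 0.143). A 2-fold difference was reached by 551 features (1.65%), 211 lower (0.633%) and 340 higher (1.02%). At an unadjusted p under 0.05 there were 1492 features (4.47%), of which 699 were lower (2.1%) and 793 higher (2.38%) at day 14. With the replicate number as a block, 0 features passed in limma (smallest adjusted p = 0.332) and 3585 (10.8%) had an unadjusted p under 0.05, 1605 lower (4.81%) and 1980 higher (5.94%). The values of the 2 days did not overlap in 780 features (2.34%), 361 lower (1.08%) and 419 higher (1.26%), and for such a feature alone an exact two-sided permutation test gives p = 0.0286, the smallest that 4 against 4 allows. The median standard error of a difference was 0.22, with 0.13 to 0.47 from the 10th to the 90th percentile, and 0.14 with the block. No single gene below passed the adjusted test, so each is given by its values and its standard error. A direction held in 4 of 4 pairs in 9.43% of features for lower and 10.7% for higher values.

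The features with the 4 smallest p-values had no gene symbol, so their probes are given by sequence, which is their only identity here. The sequences are those of the array, 5′ to 3′, each of 60 bases.
A_72_P424229: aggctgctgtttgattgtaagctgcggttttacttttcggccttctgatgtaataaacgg
A_72_P314703: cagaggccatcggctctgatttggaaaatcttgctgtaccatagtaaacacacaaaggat
A_72_P137611: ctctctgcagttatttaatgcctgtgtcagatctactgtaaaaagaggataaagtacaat
A_72_P364678: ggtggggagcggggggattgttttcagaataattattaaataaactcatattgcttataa

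A_72_P424229 stood at 6.40, 6.74, 6.33 and 6.23 at day 5 and at 12.06, 11.05, 9.80 and 10.70 at day 14. All day 14 samples were far above all day 5 samples, with a difference of 4.48 ± 0.42, or 22.3-fold (adjusted p = 0.143 in limma). At day 5 it was well above background in 3 of 4 samples here, so that the fold is set against a level near background. The same step between days was present at the other sites: 6.04 to 6.60 against 10.14 to 12.84 at the anastomosis, and 6.19 to 6.67 against 9.76 to 12.49 in the jugular control. At day 5 it was well above background in 3 of 4 samples of the anastomosis and 1 of 4 of the jugular, so the day changes are not compared between sites. In replicate 4, whose days shared slide and scan, it was 6.23 against 10.70. In limma it passed when all 24 samples shared an estimate of the spread (adjusted p = 0.00205) and with the protocol version as a block (adjusted p = 0.0499).

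A_72_P314703 stood at 10.55, 10.60, 10.32 and 10.11 at day 5 and at 7.83, 8.11, 8.41 and 6.95 at day 14, with no overlap and a difference of -2.57 ± 0.30 (adjusted p = 0.388). Its jugular values were 6.56 to 7.97 and 6.28 to 8.41, and the anastomosis held 11.04 to 13.03 and 8.63 to 11.61. The jugular samples were in the other dye, so these levels are side by side only and not compared. The change differed from that of the jugular by -2.25 ± 0.73 (adjusted p = 0.657, limma). A_72_P137611 was higher at day 14, from 8.39 to 8.83 at day 5 to between 9.71 and 10.53, a difference of 1.58 ± 0.20. A_72_P364678 was lower, from 12.59 to 12.86 at day 5 to between 11.45 and 11.84, a difference of -1.05 ± 0.14. Neither pair of groups overlapped.

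**Figure D1:**
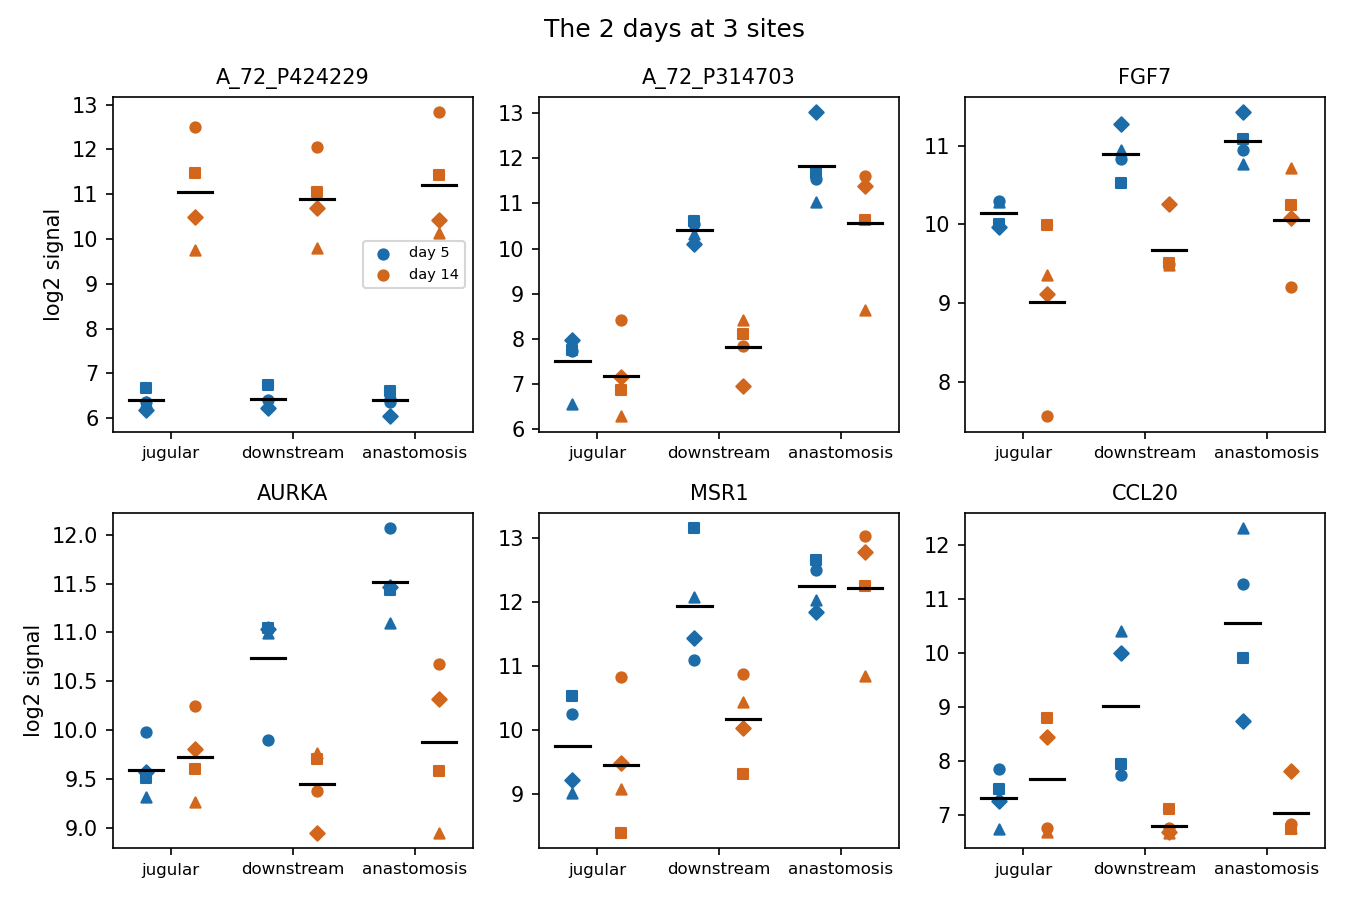
Log2 signal (vertical axis) of 2 unnamed probes and 4 genes in the jugular control, the downstream vein and the anastomosis, at day 5 (blue) and day 14 (orange). Circles, squares, triangles and diamonds are replicates 1 to 4 and black lines the means of 4 samples. A_72_P424229 is at 9.76 or above in every day 14 sample and at 6.74 or below in every day 5 sample of all 3 sites, whereas A_72_P314703 is at 6.95 to 8.41 in the downstream vein at day 14 against 10.11 to 10.60 at day 5.

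Genes of mitosis and the cell cycle, which cells express while they divide, were lower at day 14. All 23 measured of the 39 listed had a lower mean at day 14, with a median difference of -1.33 and a range of -1.87 to -0.24, beside a median of 0.02 over all features tested and 47% of them lower. At an unadjusted p under 0.05 there were 19 of the 23 lower, against 2.1% of all features, and 0 passed the adjusted test. In bulk tissue, fewer dividing cells and less of these RNAs per cell cannot be told apart. The summed level of the macrophage markers MSR1, CD163 and AIF1 was lower at day 14 in 4 of 4 pairs (log2, 14.70 to 15.72 at day 5, 12.94 to 15.16 at day 14). CD163, at 14.22 to 15.02 at day 5, weighs more in this sum than MSR1, at 11.09 to 13.15. The 24 measured macrophage genes were not lower in every pair, with pair medians of -0.42, -0.98, 0.21 and -0.03. The part of macrophages in the cell cycle result was not tested.

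The median of the 23 genes in each sample was 9.42, 11.05, 10.94 and 10.69 at day 5 and 9.38, 8.87, 9.77 and 8.18 at day 14. Replicate 1 was the lowest at day 5 and within the range of the others at day 14, and without its day 5 sample the medians of the days did not overlap. The median difference within the pairs was 0.08 in replicate 1, -2.04 in replicate 2, -1.05 in replicate 3 and -2.35 in replicate 4. The list was thus lower in 3 of the 4 pairs, and 8 of its 23 genes were lower in all 4, against 9.43% of all features. The median was -1.65 in replicates 3 and 4, whose days shared a scan, with 20 genes lower at an unadjusted p under 0.05, and -1.0 in replicates 1 and 2, with 0. Without replicate 2 it was -1.11 and without replicate 4 -1.0, with 2 genes at an unadjusted p under 0.05 in either case, and without replicate 1 it was -1.84 with 22.

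AURKA, a kinase of the centrosome and the mitotic spindle, stood at 9.90, 11.05, 10.99 and 11.04 at day 5 and at 9.38, 9.70, 9.77 and 8.95 at day 14. It was the 1 gene of the 23 measured whose days did not overlap, with a difference of -1.29 ± 0.31. Of all features, 1.08% were lower without overlap. A second AURKA probe gave -0.60. CDK1, the kinase that drives entry into mitosis, stood at 10.26, 11.65, 11.52 and 11.47 at day 5 and at 9.98, 9.12, 10.43 and 8.56 at day 14. The day 14 sample of replicate 3 lay just above the day 5 sample of replicate 1, and all other day 14 samples lay below day 5 (difference -1.70 ± 0.46).

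TTK, a kinase of the spindle checkpoint, was 7.74, 9.29, 8.93 and 8.80 at day 5 and 7.97, 6.94, 7.80 and 6.38 at day 14, a difference of -1.42 ± 0.44, but its dimmer probe gave -0.09. MYBL2, a transcription factor of cell cycle genes, was the brightest of the list, with 11.12, 13.24, 13.50 and 13.30 at day 5 and 11.28, 11.31, 12.45 and 10.94 at day 14. In both genes replicate 1 was level between the days and the other 3 replicates were lower at day 14. TOP2A, the topoisomerase that untangles replicated chromosomes, differed by -1.32 ± 0.54, with replicate 1 slightly higher at day 14 (11.58 against 11.15). BIRC5, the survivin subunit of the chromosomal passenger complex, had the largest difference of the list at -1.87 ± 0.62, and KIF20A, a kinesin of cell division, the smallest at -0.24 ± 0.20, but KIF20A was well above background in only 3 of 4 day 5 and 2 of 4 day 14 samples, where a larger difference could not be seen. BIRC5 and KIF20A were picked after their values were seen. SGOL2, which protects the cohesion of centromeres and was not on the list, had no overlap, with 8.86 to 9.60 at day 5 and 7.10 to 8.59 at day 14 (-1.17 ± 0.35).

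**Figure D2:**
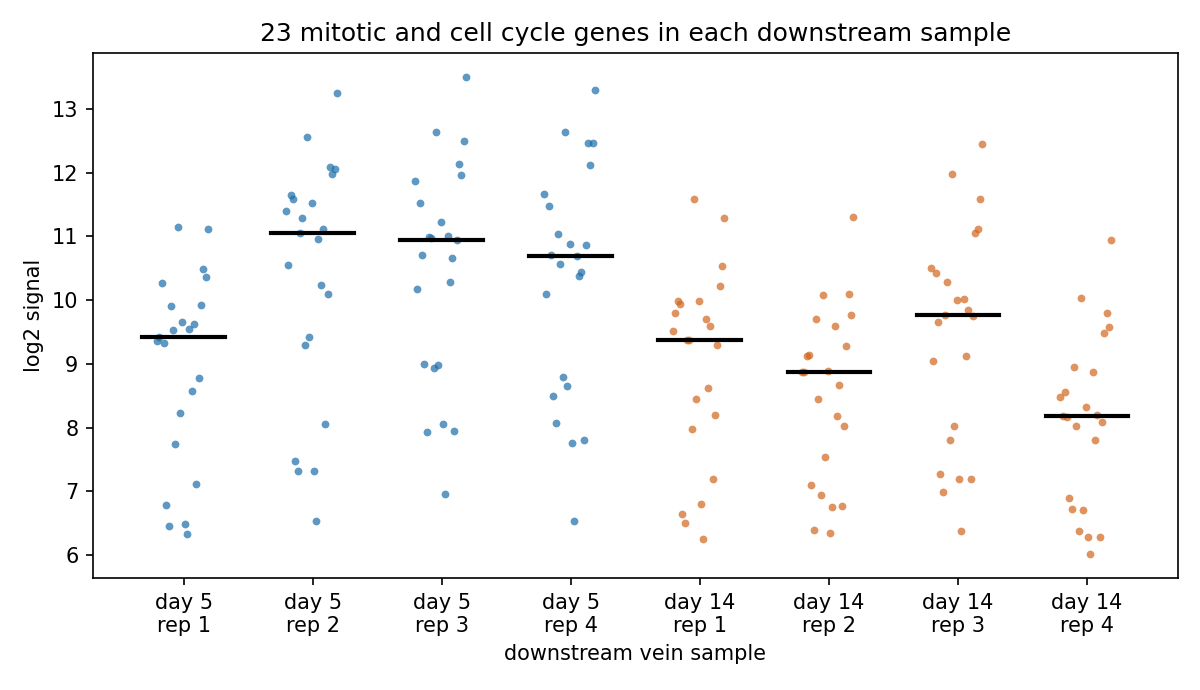
Log2 signal (vertical axis) of the 23 measured mitotic and cell cycle genes in each of the 8 downstream samples (horizontal axis), day 5 in blue and day 14 in orange, with black bars at the median of each sample. The medians of day 5 replicates 2 to 4 lie at 10.69 to 11.05, and those of day 14 at 8.18 to 9.77, with day 5 replicate 1 at 9.42 among them.

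Genes of DNA replication were lower too, by less. All 12 measured of 30 listed had a lower mean at day 14, with a median of -0.54, beside 47% of all features lower. Of the 12, 3 had an unadjusted p under 0.05, against 2.1% of all features lower. RRM2, a subunit of the enzyme that makes deoxyribonucleotides, was 9.49, 11.15, 11.49 and 11.19 at day 5 and 9.75, 8.56, 10.08 and 8.15 at day 14 (-1.69 ± 0.56). MCM4, part of the replicative helicase, differed by -0.98 ± 0.37 and UHRF1, which maintains DNA methylation at replication forks, by -0.79 ± 0.31. The pair medians of the list were 0.24, -0.99, -0.39 and -0.93, so replicate 1 again stood apart from the other 3 pairs.

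Genes of protein folding in the endoplasmic reticulum, the compartment through which secreted proteins pass, had a lower median in every pair, at -0.30, -0.48, -0.39 and -0.63. Of the 16 measured of 27 listed, 14 had a lower mean (median -0.38), beside 47% of all features. At an unadjusted p under 0.05 there were 4 lower, against 2.1% of all features. With the replicate block there were 7, against 4.81%. The 4 without the block were SSR1, part of the complex beside the translocon (-0.89 ± 0.30), CRELD2, induced by stress of this compartment (-0.73 ± 0.29), the chaperone HSP90B1 (-0.64 ± 0.26) and the cochaperone DNAJB9 (-0.47 ± 0.19). XBP1, the transcription factor of the unfolded protein response, was at 14.88 to 15.28 at day 5 and 14.68 to 15.34 at day 14. Its difference was -0.02 ± 0.17, with -0.46 as the lowest of its 3 probes.

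LRRC59, MLEC and TMED9 were not on this list and were named as symbols with a large lower value and no overlap. LRRC59, a ribosome-binding membrane protein of the endoplasmic reticulum, was 9.82, 11.25, 11.05 and 11.15 at day 5 and 9.48, 9.57, 9.32 and 9.29 at day 14 (-1.41 ± 0.31). The day 5 sample of replicate 1 lay close to the day 14 samples and the other 3 well above them. MLEC, a lectin that binds glycans of new proteins, was 9.72, 9.81, 10.79 and 10.81 at day 5 and 8.44, 8.75, 9.46 and 9.41 at day 14. Each MLEC pair was lower by 1.06 to 1.40 (-1.27 ± 0.35; adjusted p = 0.332 with the replicate block, limma). TMED9, a cargo receptor between endoplasmic reticulum and Golgi, was 14.84 to 15.24 at day 5 and 12.96 to 14.61 at day 14 (-1.14 ± 0.33).

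Macrophage genes were mixed. Of 24 measured of 29 listed, 19 had a lower mean at day 14, beside 47% of all features, with a median of -0.30. At an unadjusted p under 0.05 there were 4 lower, against 2.1% of all features. The pair medians were -0.42, -0.98, 0.21 and -0.03, so the list was lower in replicates 1 and 2 (median -0.93 over these) and not in replicates 3 and 4 (0.12). Without day 14 replicate 2 the median was 0.01. MSR1, a scavenger receptor for modified lipoproteins, was 11.09, 13.15, 12.07 and 11.43 at day 5 and 10.87, 9.30, 10.43 and 10.02 at day 14 (-1.78 ± 0.49). Its days did not overlap, though the lowest day 5 and the highest day 14 value were only 0.22 apart. CD163, the receptor for haemoglobin bound to haptoglobin, was 14.22, 14.63, 15.02 and 14.72 at day 5 and 13.86, 12.28, 13.97 and 14.04 at day 14 (-1.11 ± 0.40). Replicate 2 was the lowest at day 14, and the days did not overlap. LGALS3, or galectin-3, was among the brightest of the list and differed by -0.23 ± 0.44.

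CX3CR1, the receptor for fractalkine on monocytes, was 10.49, 10.49, 10.27 and 10.02 at day 5 and 9.57, 9.35, 8.70 and 8.08 at day 14. All 4 pairs were lower by 0.92 to 1.94 (-1.39 ± 0.32), but a second, dimmer probe gave -0.14. TLR2, a receptor for bacterial lipoproteins, differed by -0.83 ± 0.34. HMOX1, or haem oxygenase 1, which breaks down haem, was 13.99, 15.56, 15.96 and 15.25 at day 5 and 12.03, 13.60, 12.45 and 14.33 at day 14. It was lower in every pair, with day 14 replicate 4 inside the day 5 range (-2.09 ± 0.59). The lysosomal protease CTSD differed by -1.10 ± 0.47.

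Genes shared with osteoclasts had a wide spread, and 8 of 11 measured had a lower mean, beside 47% of all features. IBSP, or bone sialoprotein, had the largest lower value of all features tested at -3.00 ± 0.98. It was 8.30, 8.72, 10.16 and 12.94 at day 5 and 6.97, 6.42, 8.33 and 6.41 at day 14, lower in 4 of 4 pairs, by 1.32 in replicate 1 and by 6.53 in replicate 4. The tartrate-resistant phosphatase ACP5 differed by -1.58 ± 0.93 (11.34, 15.06, 15.35 and 14.41 against 11.44, 11.48, 13.30 and 13.61). SPP1, or osteopontin, spanned 11.96 to 15.95 at day 5 and 11.13 to 14.76 at day 14, so that its difference of -1.09 ± 0.96 was about the size of its error. The protease CTSK was level (0.03 ± 0.41), and the integrin chain ITGB3 differed by -0.52 ± 0.37. Over the 11 measured of 19 listed the median was -0.33, with 3 higher in mean. At an unadjusted p under 0.05 there was 1 lower, against 2.1% of all features. With the replicate block there were 3, against 4.81%.

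Cytokines and chemokines did not share a direction, with 14 higher and 12 lower in mean of 26 measured. CCL20, which attracts lymphocytes and dendritic cells through CCR6, was 7.74, 7.95 and 10.41 in replicates 1 to 3 at day 5, with replicate 4 just below replicate 3, and 6.75, 7.11, 6.67 and 6.68 at day 14. The day 5 values fell into a lower pair, replicates 1 and 2, and a higher pair, replicates 3 and 4, and all day 14 values lay below them (-2.22 ± 0.60). CXCL9, induced by interferon gamma and a ligand of CXCR3 on activated T cells, went the other way: 9.10, 7.72, 6.87 and 7.11 at day 5 and 9.44, 10.43, 11.83 and 8.84 at day 14. It was higher in every pair (2.43 ± 0.71), by 0.34 in replicate 1 and 4.96 in replicate 3, and a second probe gave 0.54.

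IL15, a growth factor of natural killer and memory T cells, was 7.05 to 7.66 at day 5 and 8.0 to 9.19 at day 14 with no overlap (1.01 ± 0.29), although its other probe gave 0.01. IL10, which restrains inflammation, was 10.08 to 11.05 at day 5 and 9.23 to 10.14 at day 14 (-0.88 ± 0.26). The acute cytokines IL6 (-0.69 ± 0.97) and CXCL2 (0.23 ± 0.74) varied more between samples than between days.

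Most genes of antigen presentation, interferon response and T cells had higher means at day 14, beside 53% of all features. The largest pair medians were in replicate 3 for antigen presentation and T cells and in replicate 4 for the interferon response. For MHC class II and antigen presentation, 15 of 16 measured had a higher mean (median 0.43), with pair medians of -0.39, 0.26, 1.68 and 0.23. SLA-DOA, a class II chain of the pig, was 9.56, 9.14, 9.10 and 9.28 at day 5 and 9.67, 10.21, 11.62 and 9.74 at day 14 (1.04 ± 0.41). The days did not overlap, but replicate 1 differed by only 0.10. SLA-DRA, the brighter class II alpha chain, differed by 0.72 ± 0.45. Of 24 interferon response genes, 20 had a higher mean (median 0.30, pair medians -0.48, -0.10, 0.61 and 0.82), with GBP2 at 1.08 ± 0.46 and GBP1 at 1.42 ± 0.64, both guanylate-binding proteins. Of 17 T and NK cell genes, 15 had a higher mean (median 0.52) and 0 had an unadjusted p under 0.05. For antigen presentation and for the interferon response there was 1 gene each, against 2.38% of all features higher. With the replicate block there were 2 T and NK cell, 1 antigen presentation and 2 interferon response genes, against 5.94%.

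The summed level of the T cell markers CD3E, CD3D, CD2 and CD8A was 9.60 to 10.04 at day 5, and 10.07, 11.25, 11.67 and 9.55 at day 14. Replicates 2 and 3 were thus above the day 5 range and replicate 4 just below it. CD3D, a chain of the T cell receptor complex, followed the same order (8.92, 10.63, 10.83 and 8.16 at day 14 against 8.34 to 9.15 at day 5), and so did ICOS, a costimulatory receptor, with 8.0, 8.58, 9.73 and 6.99 against 7.04 to 7.35. The part of T cell content in the values of CXCL9, SLA-DOA and the guanylate-binding proteins was not tested. The summed level of 3 lymph node markers was 11.11 to 12.18 at day 5 and 10.74 to 13.59 at day 14, highest in replicate 3 as well.

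Structural genes of the matrix showed no shared direction outside replicate 2. Of 25 measured collagen and matrix genes, 17 had a lower mean, beside 47% of all features. The median of the list was -0.09, and its pair medians were 0.18, -1.07, 0.05 and 0.14. COL1A2, the alpha 2 chain of type I collagen and among the brightest genes of the vein, was 16.82 to 17.55 at day 5 and 17.21, 15.40, 17.46 and 17.66 at day 14, with replicate 2 alone below the others (-0.27 ± 0.47). The 5 probes of COL1A2 gave -0.85 to 0.58. COL1A1, the alpha 1 chain, was 12.38, 13.20, 12.50 and 12.59 at day 5 and 11.28, 10.26, 12.11 and 12.41 at day 14 (-1.15 ± 0.45). COMP, a matrix protein that organises collagen fibres, was lower without overlap, with 9.01 to 9.54 at day 5 and 7.43 to 8.82 at day 14 (-0.92 ± 0.29). Of the 8 measured genes of collagen folding and crosslinking, 7 had a lower mean, beside 47% of all features. These 7 included the collagen chaperone SERPINH1 (-1.49 ± 0.61) and the lysyl hydroxylase PLOD2 (-0.84 ± 0.27). The protease inhibitor TIMP1 was lower in 4 of 4 pairs, by 0.44 to 2.57, with overlapping days (-1.41 ± 0.67). ACAN, the cartilage proteoglycan aggrecan, was higher in mean (9.87, 9.47, 8.97 and 8.30 against 10.29, 9.14, 11.67 and 11.94; 1.61 ± 0.63), but another of its probes gave 0.06.

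Among growth factors, FGF7, or keratinocyte growth factor, which stromal cells secrete, was 10.83, 10.52, 10.95 and 11.28 at day 5 and 9.49, 9.51, 9.48 and 10.26 at day 14. All 4 pairs were lower by 1.01 to 1.47 and the days did not overlap (-1.21 ± 0.23, adjusted p = 0.877, limma). Its mean was lower at day 14 at the anastomosis (-1.0) and in the jugular control (-1.13) too, so the change downstream differed from that of the control by -0.08 ± 0.42. IGF2, an insulin-like growth factor, was higher in every pair, with 13.65, 12.22, 14.66 and 14.30 at day 5 and 14.55, 14.80, 15.64 and 16.23 at day 14. Day 14 replicate 1 lay just below the highest day 5 sample (1.60 ± 0.57, with 0.53 as the lowest of its 7 probes). NPPC, the C-type natriuretic peptide, which endothelial cells release, was 9.13, 7.25, 9.95 and 7.72 at day 5 and 6.55 to 7.0 at day 14 (-1.78 ± 0.55). It was near the bottom of the scale in all 4 day 14 samples.

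Genes of resting adventitial fibroblasts, the stromal cells of the outer wall, had a higher median at day 14 in every pair, at 0.22, 0.45, 0.64 and 1.53. Only 6 of the 15 measured were higher in 4 of 4 pairs, against 10.7% of all features. Of 15 measured of 26 listed, 13 had a higher mean (median 1.07), beside 53% of all features. At an unadjusted p under 0.05 there were 4 higher, or 5 with the replicate block, against 2.38% and 5.94% of all features. With all probes of a symbol averaged the median was 0.66, and it was 0.40 in replicates 1 and 2. SPARCL1, an extracellular glycoprotein, was 14.70, 12.25, 12.81 and 12.95 at day 5 and 15.33, 14.64, 13.86 and 14.48 at day 14. The high day 5 value of replicate 1 made the days overlap (1.40 ± 0.53). DPP4, a membrane peptidase, was 7.68 to 8.79 at day 5 and 8.35 to 10.11 at day 14 (1.09 ± 0.42). The 2 brightest genes of the list differed by less, MFAP5 by 0.15 ± 0.48 and DPT by 0.52 ± 0.36. MFAP5 was lower at day 14 in replicates 1 and 2 (-0.56 and -0.88). ITM2A, a membrane protein, was 11.12 to 11.79 at day 5 and 11.87, 14.14, 12.11 and 12.54 at day 14 with no overlap (1.16 ± 0.46). Its pair differences were 0.24, 2.35, 0.64 and 1.43, largest in replicates 2 and 4, as were those of the adipocyte gene SCD (0.93, 4.83, 0.78 and 2.47). Both were highest in replicate 3 at the anastomosis at day 14 (ITM2A 13.04, SCD 16.98) and in replicate 2 of the jugular at day 14 (13.05 and 16.74), and the part of fat in the value of ITM2A was not tested.

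Adipocyte genes had the highest median of the lists at 1.26, and it came from 2 of the 4 pairs. The pair medians were -0.37, 2.40, 0.19 and 2.47. Of 21 measured, 19 had a higher mean, beside 53% of all features. With the replicate block 3 had an unadjusted p under 0.05, against 5.94% of all features higher. Without the block 2 had an unadjusted p under 0.05, against 2.38% of all features higher. These were SCD, a fatty acid desaturase (2.25 ± 0.97, with 0.92 as the lowest of its 3 probes), and PNPLA2, a triglyceride lipase (1.26 ± 0.54, with 0.19 as the lowest of 4). SCD was 10.88, 12.03, 12.60 and 12.21 at day 5 and 11.81, 16.86, 13.38 and 14.68 at day 14, highest in replicate 2. FASN, or fatty acid synthase, differed by 2.20 ± 0.97, with 0.38 as the lowest of its 3 probes. FABP4, the fatty acid carrier of adipocytes, spanned 12.92 to 17.39 at day 5 and 13.13 to 17.57 at day 14 (0.44 ± 1.17). The summed level of the 5 adipocyte markers was 13.05 to 17.46 at day 5 and 13.22 to 18.44 at day 14, a wide range on either day, and how much fat each segment carried was not tested.

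**Figure D3:**
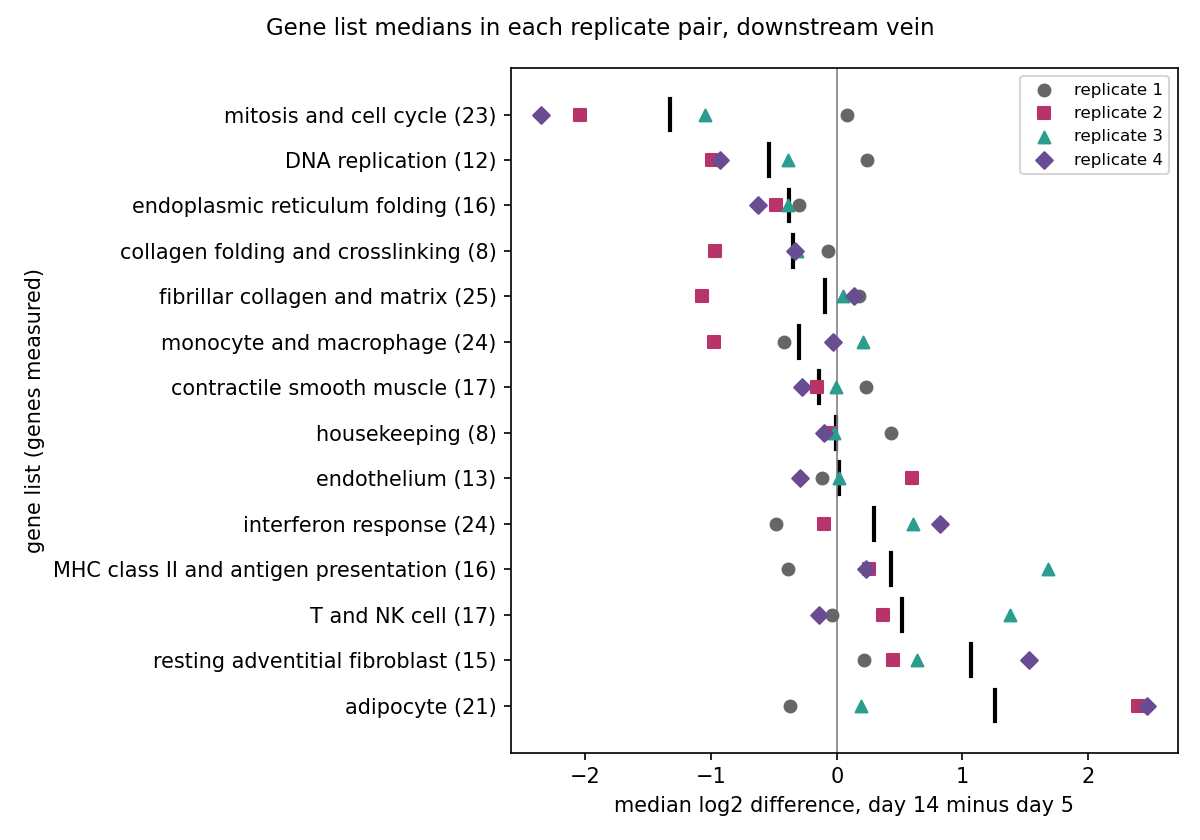
Median log2 difference, day 14 minus day 5 (horizontal axis), of 14 gene lists (vertical axis, with the number of genes measured) in each replicate pair; black bars are the median over genes of the mean difference of the 4 pairs. Mitotic genes lie at -2.35 to -1.05 in replicates 2 to 4 and at 0.08 in replicate 1, whereas adipocyte genes lie at 2.40 and 2.47 in replicates 2 and 4 and at -0.37 and 0.19 in replicates 1 and 3.

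Wall cell genes were close to level. Of 13 endothelial genes, 8 had a higher mean and the median was 0.02, with pair medians of -0.12, 0.60, 0.02 and -0.29. PECAM1, an adhesion molecule of the endothelium, was 15.07 to 15.94 at day 5 and 15.17 to 15.70 at day 14, a difference of -0.02 with a 95% interval of -0.50 to 0.45. VWF, the clotting carrier protein of the endothelium, differed by 0.43 ± 0.22. SOX17, an arterial endothelial transcription factor, was higher without overlap but dim, with 6.34 to 6.78 against 6.81 to 8.36 (0.72 ± 0.33). At day 14 it was highest in downstream replicate 2 (8.36), anastomosis replicate 3 (7.60) and jugular replicate 2 (6.83), as was SCD. The part of fat in the value of SOX17 was not tested. EDN1, which encodes the vasoconstrictor endothelin 1, was higher in every pair: 10.19, 7.66, 7.33 and 7.09 at day 5 and 10.88, 11.24, 9.33 and 8.40 at day 14. Its samples varied from replicate to replicate as much as between days (1.89 ± 0.84).

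Of 17 contractile smooth muscle genes, 8 had a higher and 9 a lower mean (median -0.14), and 0 had an unadjusted p under 0.05. With the replicate block 3 were lower at an unadjusted p under 0.05, against 4.81% of all features lower. ACTA2, smooth muscle actin, was 16.99, 15.21, 15.87 and 16.52 at day 5 and 17.96, 16.88, 15.98 and 16.11 at day 14 (0.58 with a 95% interval of -0.61 to 1.78), and RGS5, a regulator of G protein signalling in mural cells, differed by 0.45 ± 0.36. The sign of this median depended on the samples, from -0.32 without day 14 replicate 1 to 0.30 without day 14 replicate 2, and it was 0.20 in the deposited value table. Of 8 housekeeping genes, 4 had a higher mean and the median was -0.01, with ACTB, or beta actin, at 17.36 to 17.86 at day 5 and 17.49 to 17.86 at day 14 (0.06 ± 0.15). The 7 probes of ACTB gave -0.58 to 0.06.

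Other symbols with no overlap came from many roles. MAP4K2, a kinase upstream of stress-activated kinases, was 9.10, 8.81, 8.58 and 8.41 at day 5 and 9.67, 10.23, 10.03 and 9.53 at day 14 (1.14 ± 0.21). AIF1L, an actin-binding protein, was 7.18, 6.92, 6.82 and 6.53 at day 5 and 7.83, 7.85, 8.02 and 7.49 at day 14 (0.94 ± 0.18). Both were higher in 4 of 4 pairs, MAP4K2 by 0.57 to 1.45 and AIF1L by 0.65 to 1.21, least in replicate 1. INPP4A, a phosphatase of phosphoinositides, was 9.01 to 10.28 at day 5 and 10.46 to 11.31 at day 14 (1.13 ± 0.30), with 0.46 from another probe. SLITRK6, a transmembrane protein known from neurons, was 8.45, 7.57, 7.58 and 7.12 at day 5 and 8.81, 10.01, 8.50 and 9.06 at day 14 (1.42 ± 0.38), the largest higher value by symbol with no overlap, although its dimmer probe gave 0.13.

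F2RL2, a protease-activated receptor that takes part in thrombin signalling, was 11.75 to 12.81 at day 5 and 12.96 to 14.15 at day 14 (1.13 ± 0.34), with its largest pair differences in replicates 2 and 4 (1.85 and 2.13). TSTD1 differed by 1.05 ± 0.40, with 0.29 from its other probe. TSTD1 was highest in downstream replicate 2 (14.67), anastomosis replicate 3 (14.92) and jugular replicate 2 (14.94) at day 14, the samples in which SCD was highest at each site, and F2RL2 was highest in the same 3 (14.15, 13.65 and 14.46). The part of fat in these values was not tested. The remaining higher symbols of this group were SOCS2, an inhibitor of cytokine signalling (0.89 ± 0.28, with 0.41 as the lowest of its 3 probes), the lipid phosphatase PLPP2 (0.88 ± 0.26) and ITIH1 (1.18 ± 0.42), the last well above background in 2 of 4 day 5 samples. ITIH1 (8.83, 7.79 and 8.90) and PLPP2 (11.39, 11.56 and 12.04) were highest at day 14 in the same 3 samples as TSTD1. The part of fat in them was not tested. On the lower side stood BAX, which permeabilises mitochondria in apoptosis, with 9.98 to 10.85 at day 5 and 8.63 to 9.68 at day 14 (-1.15 ± 0.28). PARP1, an enzyme of DNA repair, was 11.92 to 12.21 at day 5 and 10.81, 9.85, 11.23 and 11.79 at day 14 (-1.15 ± 0.37). Of the 30 complement and coagulation genes measured, C6, a component of the membrane attack complex, had the smallest p, with 7.51 to 7.99 at day 5 and 6.46 to 7.13 at day 14 (-0.94 ± 0.19), though another probe gave -0.09. F5, or coagulation factor V, was higher in every pair (1.36 ± 0.56).

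**Figure D4:**
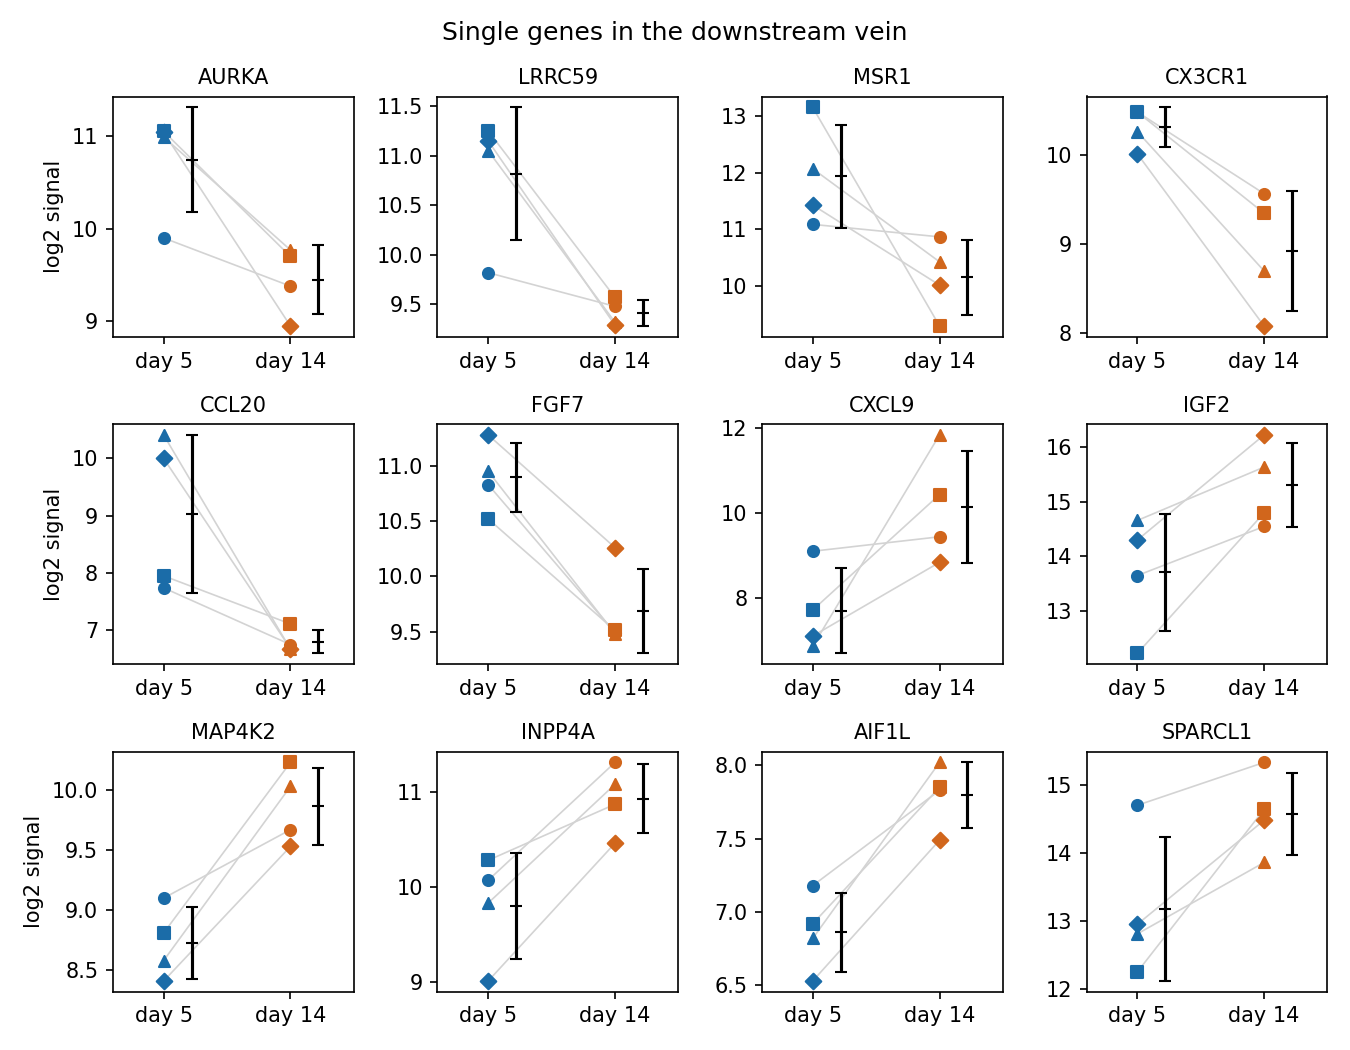
Log2 signal (vertical axes, which do not start at 0) of 12 genes in the downstream vein at day 5 (blue) and day 14 (orange). Circles, squares, triangles and diamonds are replicates 1 to 4, joined by grey lines, with the mean ± SD of 4 samples beside them. FGF7 is lower in every pair by 1.01 to 1.47, whereas AURKA, LRRC59 and MSR1 differ least in replicate 1.

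The day change of the downstream vein was then set against those of the other sites, in a fit over all 24 samples in which the 3 sites of a number and day formed a block. The downstream samples enter both differences, and the jugular samples were in Cy3, so that only a dye shift that is constant over days cancels. Against the jugular control, 0 features passed (smallest adjusted p = 0.657, limma) and 2510 (7.53%) had an unadjusted p under 0.05, 953 lower (2.86%) and 1557 higher (4.67%). Of the 23 mitotic genes, 21 had a lower day change downstream than in the jugular at an unadjusted p under 0.05, with a median of -1.86. The jugular median of these genes was 0.50 higher at day 14. TOP2A, with a jugular day change of 0.81, differed by -2.14 ± 0.64 and AURKA by -1.43 ± 0.49. On the higher side, the change of CXCL9 exceeded that of the jugular by 1.82 ± 0.56, that of IGF2 by 1.67 ± 0.53 and that of INPP4A by 1.13 ± 0.33, with adjusted p = 0.657 for each in limma.

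Against the anastomosis, 0 features passed (smallest adjusted p = 0.985, limma) and 1383 (4.15%) had an unadjusted p under 0.05, 695 lower (2.08%) and 688 higher (2.06%). The median day difference of the mitotic genes was -1.52 at the anastomosis and -1.33 downstream, and 0 of 23 differed at an unadjusted p under 0.05. Macrophage genes had a median of 0.40 at the anastomosis and -0.30 downstream, and 6 of 24 had a lower day change downstream at an unadjusted p under 0.05. MSR1 differed between these day changes by -1.74, with 11.84 to 12.65 at day 5 and 10.83 to 13.02 at day 14 at the anastomosis. CTSD differed by -1.43 and ACP5 by -2.93, both adjusted p = 0.985 in limma. Resting fibroblast genes had medians of 0.78 at the anastomosis and -0.22 in the jugular, beside 1.07 downstream. Only 1 of 15 had a higher day change downstream than in the jugular at an unadjusted p under 0.05, beside 4.67% of all features. Compared with the anastomosis, 0 of 15 differed at that threshold.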

How the data were processed

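RNA of 24 pig vein samples was hybridised to 16 Agilent 2-colour arrays. Per the file headers, the deposited spot intensities come from Agilent's Feature Extraction software (version 10.5.1.1), whose protocol version differed between replicates 1 and 2 and replicates 3 and 4. A deposited table of log2 values, made by the authors in a way that no source used here gives, served as an alternative. Intensities were background-corrected (normexp, offset 50), loess-normalised within arrays and Aquantile-normalised between them in limma 3.58.1 (R 4.3.3), and each sample is its own channel. A symbol is represented by its brightest probe; 9232 of 43603 probes (21.2%) had a symbol. Tests took the features that were well above background in 4 or more of the 24 samples (lmFit, eBayes, two-sided, Benjamini-Hochberg) on the 8 downstream samples without a block. Array number and signal over background limit the precision.

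The replicate numbers in the titles were checked as pairs. Deviations of same-numbered samples correlated at 0.32 to 0.62 in all 4 pairs, against -0.51 to 0.32 for different numbers. In the deposited table the correlations of same-numbered samples were -0.40 to 0.11. Same-numbered samples also shared the protocol version, and those of replicates 3 and 4 a scan. By this check a shared animal and shared processing cannot be told apart. The main test has no block, and the blocked fit is given beside it for the counts over all features and for some lists. Where nothing says that replicates are separate animals, p-values measure only the spread between samples. The samples and the 33 gene lists were chosen with earlier results of these data known. Genes were named by rule: the 12 largest non-overlapping differences in each direction among symbols well above background, the 3 smallest p-values and 2 brightest genes of each list, and the housekeeping genes. No interaction passed, so none was named from it. Tests were checked on simulated data in which all samples were drawn independently. This check therefore did not cover the likeness of same-numbered samples. Alternatives were other background corrections, normalisations, filters, blocks, sample sets and probe rules, and each sample or pair left out.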

Additional observations from a re-analysis of the deposited data

Results flagged for a closer look

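In 18 of 199 groups of 4 values, 1 value lay far from the other 3 by Dixon's criterion, which chance meets in about 1 in 20 groups. The far value was of replicate 1 in 12 of the 18, of replicate 2 in 4, and of replicates 3 and 4 in 1 each.

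At day 5, replicate 1 was low in genes of cell division and replication. AURKA was 9.90 there and 10.99 to 11.05 in the others. CDK1 was 10.26, MYBL2 11.12, TOP2A 11.15, BIRC5 9.92, RRM2 9.49 and MCM4 11.28, each the lowest of its group. In the same sample SSR1 was 12.24 and LRRC59 9.82, both lowest, and IL6 was 17.28, above 14.68 to 15.05 in the others. At day 14, BIRC5 was highest in replicate 3 at 11.05, IL15 in replicate 2 at 9.19 and FGF7 in replicate 4 at 10.26, whereas CD163 was lowest in replicate 2 at 12.28.

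Among the medians of gene lists within pairs, replicate 2 stood apart for fibrillar collagen and matrix at -1.07 and for osteoclast-type genes at -0.75. Replicate 1 stood apart for Schwann cell and nerve genes at -0.24 and for housekeeping genes at 0.43.

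The green channel of the downstream arrays enters no comparison. It correlated with the jugular Cy3 channel of the same replicate and day at 0.90 to 0.97 over probes in 8 pairs of arrays, against -0.55 to 0.65 in 56 other pairs.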

How the results depend on the processing

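The number of features past an adjusted p of 0.05 in limma was 0 and became 1 with processed signals, 1 with the protocol version as a block, 1 with a trend and robust prior, 2 with all 24 samples and 49 in the deposited value table. It was 0 to 2 when samples or pairs were left out, with 2 without day 14 replicate 1. The number at an unadjusted p under 0.05 was 1492. It was 3585 with the replicate block, 2717 with the protocol block, 2287 with the scan as a random block, 2491 in replicates 3 and 4 alone and 6356 in the deposited table. It was 850 (without replicate 2) to 2205 (without replicate 1) when samples or pairs were left out. The deposited table with the replicate block, an alternative chosen after seeing the data, gave 5076 at an unadjusted p under 0.05 and 0 past the adjusted p. The replicate block took no feature past the adjusted p, though it changed the counts of some lists at the unadjusted p. Over all 24 samples, the variance between the means of the replicate numbers was divided by the total variance of each feature. The median ratio was 0.00583 in the deposited table and 0.437 here, and it is not a share of variance explained. The part of this in the counts of the deposited table was not tested, nor was the cause of the other differences. The slide as a random block could not be fitted.

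Both interaction counts stayed at 0 under the alternatives run. The mitotic median kept its sign, at -1.84 to -1.0 with samples or pairs left out. Of 957 medians of 33 lists under alternatives, 928 moved by less than the spread between pairs. Of 4984 values of single genes under alternatives, 4798 kept their direction and side of the threshold, 175 changed sign without passing on either side, and 11 newly passed. These 11 were of A_72_P424229, A_72_P345448, FGF7 and AIF1L, the last 2 in the deposited table alone (-1.59 and 1.72).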
